A study of Mus musculus and Rattus norvegicus with 32 samples.

Results

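The effect of repeated trichloroethylene (TCE) on mouse liver was set against its effect on rat liver, gene by gene, over 3056 genes whose annotated symbol was the same in both species when letter case was ignored. These were 3056 of 9931 genes with a symbol in either species, 8251 of them in mouse and 4736 in rat. The 16 arrays compared here, of 32 in the series, formed 4 groups of 4. The other 16 arrays, of animals 8 weeks old after 1 dose of TCE or corn oil, also entered each gene's residual variance. Standard errors and p-values of limma therefore rest on them too. Male B6C3F1 mice, a hybrid strain, received TCE at 1500 mg per kg body weight in corn oil by gavage once daily for 14 days, and control mice received corn oil alone. Male SD (Sprague-Dawley) rats were dosed in the same 2 ways. Animals had reached 10 weeks of age at the end of dosing, and liver was collected 18 h past the final dose. Whether the 4 arrays of a group stand for 4 animals is not stated in the labels, and p-values therefore reflect array-to-array spread that may be partly technical. Species were compared only through effects, meaning TCE minus corn oil within a species on the log2 scale, and never through levels, since mouse and rat were measured on different Affymetrix arrays with different probes.

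TCE is a chlorinated solvent that cytochrome P450 enzymes of the liver oxidise to chloral and on to trichloroacetic acid, while a smaller route conjugates it with glutathione. Trichloroacetic acid activates the lipid-sensing receptor PPAR alpha in rodents, whose targets include the enzymes of peroxisomal and mitochondrial fatty acid oxidation. A separate response is led by NRF2, a transcription factor freed by electrophiles and oxidants, which drives glutathione synthesis, glutathione S-transferases and quinone reduction. Most plasma proteins, among them coagulation factors, fibrinogen and complement, are made in the hepatocyte.

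Values were deposited as ratios, with the median of the 4 matching corn oil arrays as divisor, and 1 thus stands for the typical control. The files therefore hold no signal level: the number of arrays limits the precision, a gene's presence could not be judged, and the liver label could not be checked against marker levels. Whole arrays differed. The median log2 ratio over all probe sets was -0.16 on average on mouse TCE arrays and -0.0015 on mouse oil arrays, with no overlap between the groups (difference -0.158, exact permutation test, two-sided, p = 0.0286, the smallest that 4 against 4 arrays allow), while in rat it differed by 0.0425 (exact p = 0.4). The median of mouse minus rat over the shared genes was thus -0.23 on the deposited scaling and -0.03 after each array was centred on its own median. Counts of differing genes in a list are given for both scalings where centring moved them by over 1.5 times, and a gene is said to have changed, risen or fallen, or to differ, where limma's adjusted p was under 0.05 on the deposited scaling. The 3' minus 5' log2 ratio of the Gapdh control, which is higher where transcripts are shortened, was above 1 on 3 mouse TCE arrays, 1 mouse oil array and 2 rat TCE arrays. Its mean differed between TCE and oil by 0.78 in mouse (exact p = 0.371) and by 1.08 in rat (exact p = 0.0571). The same ratio of beta-actin differed by 0.72 in mouse (exact p = 0.0571) and 0.70 in rat (exact p = 0.229). Their part in the results was not tested beyond the values given.

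After repeated TCE few genes were called in both species, and the effects correlated weakly over genes. With 4 arrays a group many changes can go uncalled, so few joint calls do not show that effects were unshared. In mouse 361 shared genes changed (11.8% of those tested), 79 up (2.59%) and 282 down (9.23%). In rat 102 changed (3.34%), 79 up (2.59%) and 23 down (0.753%). Over all probe sets, shared or not, 10.7% changed in mouse (2.24% up, 8.48% down) and 2.81% in rat (2.16% up, 0.652% down). In both species 23 genes changed, 14 in the same direction and 9 in opposite directions. They were 6.37% of the genes changed in mouse, beside 3.34% of all shared genes that changed in rat. They were 22.5% of the genes changed in rat, beside 11.8% of all that changed in mouse. Effects had the same sign for 51.2% of genes changed in mouse, 45.1% of those changed in rat and 49.2% of all shared genes. After centring these shares were 57.1%, 57.6% and 50.7%. After centring, 275 genes changed in mouse (131 up) and 99 in rat (70 up), and 12 changed the same way and 3 in opposite ways. Fitting the repeated-dose arrays alone gave 118 changed genes in mouse, 48 in rat and 5 in both. Over all 3056 genes the effects had a Pearson correlation of 0.070 and a Spearman correlation of 0.047, given as a description, since genes of an array share its scaling and RNA quality. The SD of the effects over genes was similar, at 0.63 in mouse and 0.60 in rat. These counts moved with single arrays: leaving out mouse TCE 2, mouse oil 2 or mouse oil 4 gave 195, 198 and 235 changed genes in mouse, and leaving out rat oil 1, rat TCE 2, rat oil 4 or rat TCE 1 gave 49, 49, 59 and 66 in rat. The 14 genes changed the same way became 6 without mouse oil 2, 7 without mouse TCE 2, 8 without rat TCE 2 and 9 without mouse oil 4 or rat oil 1. The 9 opposite ones became 2 without rat oil 1 or rat TCE 2, 3 without rat oil 3, rat oil 4, rat TCE 1 or rat TCE 4, and 5 without mouse oil 2 or mouse TCE 1.

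**Figure D1:**
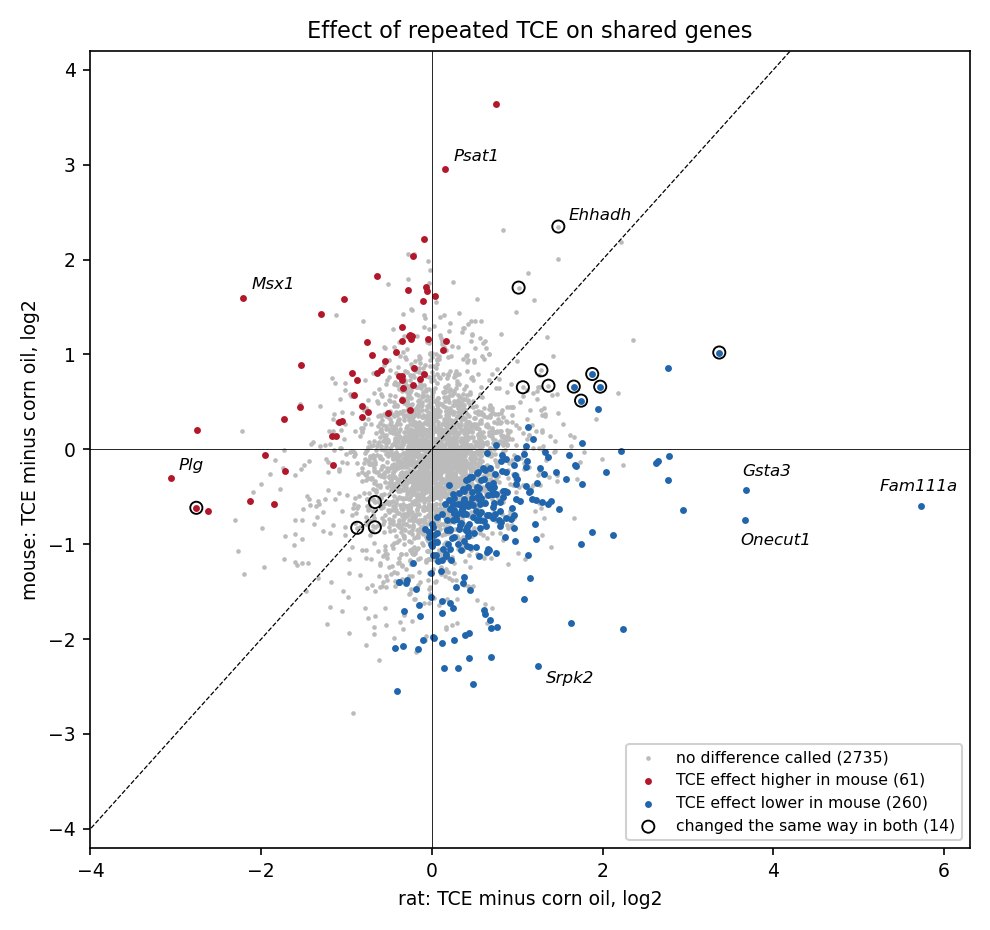
Mouse effect (vertical axis) against rat effect (horizontal axis), both TCE minus corn oil after repeated doses on the log2 scale, 1 point per shared gene, with the dashed line at equal effects. The 260 genes with a lower effect in mouse lie below the line, mostly at small negative mouse and positive rat values, and 14 ringed genes changed the same way in both species.

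Tested directly, the effect differed between the species for 321 genes (10.5% of those tested). It was higher in mouse for 61 (2.0%) and lower for 260 (8.51%). After centring it differed for 223 (7.3%), with 88 higher (2.88%) and 135 lower (4.42%); 196 genes differed under both scalings, all 61 of the higher genes and 135 of the lower ones. The split moved with the scaling, with 19.0% of the differing genes higher in mouse as deposited and 39.5% after centring. Without the 10 arrays of the series whose Gapdh value was above 1, which leaves 1 mouse TCE array after repeated doses and assumes that it varies like the other groups, 160 genes differed (24 higher, 136 lower), 104 of them among the 321. Quantile normalization left 6 differing genes, Msx1, Plg, Glul, Grin2b, Gsta3 and Aldh1a1. Among the 61 higher genes, 24 changed in mouse alone, 13 in rat alone, 2 in both and 22 in neither. Among the 260 lower ones, 121 changed in mouse alone, 42 in rat alone, 13 in both and 84 in neither, and the 2 effects had opposite signs for 227.

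Of 14 glutathione S-transferases 1 rose and 1 fell in rat, and of 25 NRF2 targets and redox enzymes 2 rose in rat. Of all shared genes 2.59% rose and 0.753% fell in rat. Gsta3, an alpha-class glutathione S-transferase, had ratios of 11.6, 12.9, 16.9 and 10.0 on the rat TCE arrays, against 0.890, 1.28, 1.11 and 0.738 on rat oil arrays. In mouse they were 0.590, 0.877, 0.992 and 0.902 on TCE arrays and 1.72, 1.04, 0.895 and 0.963 on oil arrays. All rat TCE arrays stood far above their controls, while the mouse groups overlapped. The log2 effect was 3.68 ± 0.25 (SE, n = 4 and 4, adjusted p = 2.65e-06) in rat and -0.43 ± 0.24 (adjusted p = 0.272) in mouse, a difference of -4.11 ± 0.34 (95% interval -4.82 to -3.41, adjusted p = 7.67e-09, 1.14e-08 after centring). All 3 rat probe sets of the gene passed. Alpha-class transferases are closely alike and a probe set may also bind a related transcript. Of 14 glutathione S-transferases sharing a symbol, 2 had a lower and 1 a higher effect in mouse (1 and 1 after centring), beside 8.51% and 2.0% of all shared genes. Mgst1, a membrane-bound member, fell by 0.87 in mouse (adjusted p = 0.0061) against -0.04 in rat, and Gstt2 fell by 1.13 in rat (adjusted p = 0.00985) against 0.14 in mouse. The other rat probe set of Gstt2 read 0.13 and its difference was not called over the mean of probe sets (adjusted p = 0.193), and the Mgst1 difference did not pass after centring (adjusted p = 0.0576).

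Gclm, the modifier subunit of the enzyme that starts glutathione synthesis, showed the same division. Its rat TCE ratios were 4.08, 3.37, 2.17 and 4.23 and its mouse TCE ratios 0.597, 0.986, 1.2 and 1.08. Rat groups did not overlap and mouse groups did, with effects of 1.68 ± 0.33 (adjusted p = 0.0143) and -0.17 ± 0.23 (adjusted p = 0.68) and a difference of -1.85 ± 0.40 (adjusted p = 0.00343, 0.011 after centring). Nqo1, the quinone reductase, rose by 2.04 ± 0.47 in rat (adjusted p = 0.0324) against -0.23 ± 0.33 in mouse (difference adjusted p = 0.0125), but the other rat probe set read -0.90 and the difference was lost over the mean of probe sets (adjusted p = 0.648). Txnrd1, thioredoxin reductase, had effects of 0.65 ± 0.21 in rat and -0.37 ± 0.20 in mouse, neither past the threshold, and a difference of -1.02 ± 0.29 (adjusted p = 0.0204) that did not pass after centring (0.0734), without rat TCE 4 (0.0521), or over the mean of probe sets (0.417). Of 25 shared NRF2 targets and redox enzymes 4 had a lower effect in mouse and none a higher one, beside 8.51% and 2.0% of all shared genes. The fourth was Sod2, mitochondrial superoxide dismutase. After centring 2 were lower, beside 4.42% of all shared genes. In mouse 1 of the 25 rose and 1 fell, beside 2.59% and 9.23% of all shared genes. The list median was 0.48 in rat, -0.04 in mouse and -0.42 for the difference, beside -0.23 over all shared genes. Gclc, the catalytic partner of Gclm, and Gpx2, a glutathione peroxidase, did not pass, with differences of -1.67 (adjusted p = 0.0972) and -1.59 (adjusted p = 0.107).

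The mouse promoters of Gsta3, Gclm and Txnrd1, from 250 bases before to 50 after the annotated start, are shown because each holds the core letters of the antioxidant response element through which NRF2 acts, TGACNNNGC on either strand. The 3 matches, on the gene's strand in Gsta3 and on the opposite strand in Gclm and Txnrd1, are in capitals, and the sequences are RefSeq's on GRCm38.p6.
Gsta3, chr1:21240335-21240634, plus strand: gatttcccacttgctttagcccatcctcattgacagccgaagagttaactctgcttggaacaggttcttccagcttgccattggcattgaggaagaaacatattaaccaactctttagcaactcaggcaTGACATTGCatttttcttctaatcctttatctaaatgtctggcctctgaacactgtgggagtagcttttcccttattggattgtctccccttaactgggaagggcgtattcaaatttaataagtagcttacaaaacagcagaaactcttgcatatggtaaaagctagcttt
Gclm, chr3:122245307-122245606, plus strand: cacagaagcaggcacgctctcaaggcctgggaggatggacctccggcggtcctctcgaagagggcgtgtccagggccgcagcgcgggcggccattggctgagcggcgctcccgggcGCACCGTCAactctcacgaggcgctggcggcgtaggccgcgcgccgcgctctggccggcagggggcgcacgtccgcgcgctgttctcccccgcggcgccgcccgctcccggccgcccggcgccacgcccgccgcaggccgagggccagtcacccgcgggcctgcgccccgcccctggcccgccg
Txnrd1, chr10:82858956-82859255, plus strand: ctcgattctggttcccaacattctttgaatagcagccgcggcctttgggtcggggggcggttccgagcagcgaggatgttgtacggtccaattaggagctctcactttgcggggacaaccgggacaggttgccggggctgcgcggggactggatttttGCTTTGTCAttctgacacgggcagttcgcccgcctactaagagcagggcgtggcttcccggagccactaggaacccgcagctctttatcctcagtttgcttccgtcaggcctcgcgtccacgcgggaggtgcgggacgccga
The matches begin 121, 134 and 92 bases before the start. Txnrd1 has 3 annotated windows, and the one shown holds the match. The motif occurs in 12.4% of all 32851 windows and 14.0% of 27025 symbols, and in 6 of the 21 listed NRF2 and redox genes with a window (28.6%). A match is a description of the letters, not a bound site, and rat promoters were not used here.

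Aldh1a1, a cytosolic aldehyde dehydrogenase, rose in rat, with a lower effect in mouse. Ratios on rat TCE arrays were 7.65, 6.37, 9.42 and 5.22, and on mouse TCE arrays 0.941, 0.893, 1.13 and 1.0. The mouse values lay within the range of their controls (0.884 to 1.31), and the effects were 2.78 ± 0.28 in rat (adjusted p = 0.000186) and -0.07 ± 0.16 in mouse (difference -2.84 ± 0.32, adjusted p = 2.83e-06). The second mouse probe set of Aldh1a1 read 0.48. Of 17 listed enzymes of TCE and chloral metabolism 4 had a lower and 1 a higher effect in mouse (3 and 2 after centring). As deposited, 29.4% of this list differed, beside 10.5% of all shared genes. Cyp1a2 and cytochrome b5 (Cyb5a), an electron donor to P450 enzymes, were among the lower ones, with differences of -1.28 ± 0.32 (adjusted p = 0.00965) and -1.15 ± 0.25 (adjusted p = 0.00328, -1.78 over the mean of probe sets), both still past the threshold after centring. Over the mean of probe sets the Cyp1a2 difference did not pass (adjusted p = 0.151). Cyp2e1, the main P450 that oxidises TCE, had effects of -0.37 ± 0.15 in mouse and 0.20 ± 0.14 in rat; its difference of -0.57 passed as deposited (adjusted p = 0.0489), not after centring (0.238), nor in 13 of 16 fits that left out 1 array.

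Of the 14 genes changed the same way, 10 rose. They included Ehhadh, Acaa1b, Ech1 and Pex11a of the peroxisome, Cpt2 and Eci1 of the mitochondrion, Aldh3a2, which oxidises fatty aldehydes, and Mgll, which releases fatty acid from monoglycerides. Odc1, the first enzyme of polyamine synthesis, and the RNA-binding protein Ybx3 were the others. No list was fixed for these genes together, and the list counts follow. After centring the rise of Ybx3 in rat did not pass (adjusted p = 0.0613). Earlier results of the same arrays already showed a rise of such genes, so their direction is no independent evidence.

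Ehhadh, the peroxisomal bifunctional enzyme, had ratios of 5.03, 4.78, 5.83 and 4.79 on mouse TCE arrays and 2.72, 3.67, 3.05 and 1.99 on rat TCE arrays. No TCE array of either species fell within its controls, which ran from 0.855 to 1.17 in mouse and from 0.796 to 1.26 in rat. Log2 effects were 2.35 ± 0.17 in mouse (adjusted p = 1.53e-05) and 1.48 ± 0.31 in rat (adjusted p = 0.0186), and their difference of 0.87 ± 0.35 did not pass (adjusted p = 0.107, 0.0563 after centring). The rat rise was lost when rat oil 1, rat oil 4 or rat TCE 2 was left out, and with the Gapdh covariate (adjusted p = 0.0916). Cpt2, which reforms acyl-CoA inside the mitochondrion, had ratios of 1.72, 1.89, 1.93 and 1.96 on mouse TCE arrays and 2.63, 2.23, 2.58 and 2.53 on rat TCE arrays. Both sets were above all their controls, with effects of 0.83 ± 0.15 and 1.28 ± 0.21 and a difference of -0.45 ± 0.24 (95% interval -0.95 to 0.05, adjusted p = 0.243). Aldh3a2 rose by 1.70 ± 0.15 in mouse and 1.02 ± 0.20 in rat (difference adjusted p = 0.0633, 0.0289 after centring), but its 3 rat probe sets ran from -2.16 to 1.02.

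Within this shared group several members rose more in rat. Acaa1b, a peroxisomal thiolase, had ratios of 6.96, 10.8, 12.4 and 13.8 on rat TCE arrays against 2.04, 2.02, 2.10 and 2.51 on mouse TCE arrays. Neither species overlapped its controls, and the effects of 3.37 ± 0.30 and 1.02 ± 0.16 differed by -2.35 ± 0.33 (adjusted p = 5.47e-05, 0.00046 after centring). Acaa1b has a near-identical paralog, Acaa1a, that the probes may not tell apart. Pex11a, a factor of peroxisome division, had TCE ratios of 4.04, 3.61, 3.90 and 5.0 in rat and 1.58, 2.24, 1.75 and 1.90 in mouse, a difference of -1.08 ± 0.27 (adjusted p = 0.00944, 0.0486 after centring). Its second rat probe set read 0.08, no difference was called over the mean of probe sets (-0.19, adjusted p = 0.721), and the mouse call was lost without mouse oil 2, mouse oil 3 or mouse TCE 2. For Mgll the difference was -1.31 ± 0.24 (adjusted p = 0.000973), for Eci1, an enoyl-CoA isomerase, -1.0 ± 0.24 (adjusted p = 0.00861, 0.102 over the mean of probe sets) and for Ech1, a dienoyl-CoA isomerase, -1.24 ± 0.32 (adjusted p = 0.0135, 0.0581 after centring). Leaving out any 1 of 7 mouse arrays ended the Ech1 call in mouse.

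Of 19 peroxisomal genes 4 rose in each species (5 in mouse after centring), where 2.59% of all shared genes rose in each. Only 1, catalase, fell in mouse, and that fall did not pass after centring. Lower effects in mouse were called for 6 and higher ones for none (2 and 1 after centring), beside 8.51% and 2.0% of all shared genes. The median effect was -0.16 in mouse and 0.30 in rat, beside -0.16 and 0.04 over all shared genes. After centring the list medians were -0.0018 in mouse and 0.25 in rat. Among 17 mitochondrial fatty acid oxidation genes 2 rose in mouse (4 after centring) and 3 had a lower effect there (2 after centring), beside 2.59% and 8.51% of all shared genes. The lower ones included Etfa, which passes electrons from acyl-CoA dehydrogenases to the respiratory chain (mouse -0.73 ± 0.18, rat 0.72 ± 0.20, difference adjusted p = 0.0007). Cd36, a fatty acid transporter, had rat TCE ratios of 16.4, 15.7, 1.99 and 10.0 against rat oil ratios of 0.989, 2.59, 1.01 and 0.927, and mouse TCE ratios of 1.05, 1.26, 0.569 and 0.605. The third rat TCE array lay below the second oil array, so the rat groups overlapped. Its difference was -3.08 ± 0.67 (adjusted p = 0.00328), with the second rat probe set at 0.24 and no difference called over the mean of probe sets (adjusted p = 0.164). Me1, malic enzyme, a source of NADPH, rose by 2.77 ± 0.34 in rat, where 4 of 5 probe sets passed, against 0.86 ± 0.27 in mouse (difference -1.91 ± 0.44, adjusted p = 0.00547). With the Gapdh covariate the differences of Eci1 (adjusted p = 0.0606), Ech1 (0.114) and, of the NRF2 targets, Nqo1 (0.0741) and Txnrd1 (0.0596) did not pass. None of 14 cholesterol synthesis genes changed or differed; the largest differences, Mvd at 2.28 ± 0.92 and Insig1 at -2.11 ± 0.75, had adjusted p of 0.108 and 0.0705.

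Just 4 genes fell in both species: Pemt, which makes phosphatidylcholine, Vtn, the plasma protein vitronectin, Lrrc8a, a subunit of volume-regulated anion channels, and Ddc, an aromatic amino acid decarboxylase. Vtn had TCE ratios of 0.711, 0.404, 0.573 and 0.569 in mouse and 0.534, 0.567, 0.650 and 0.737 in rat, all below their controls, which ran no lower than 0.787 in mouse and 0.833 in rat. Its effects were -0.82 ± 0.20 and -0.67 ± 0.16, a difference of -0.15 (95% interval -0.65 to 0.35). Mouse calls of all 4 were lost after centring (adjusted p = 0.0538 to 0.139), and each call in mouse and in rat was lost in at least 2 of the fits without 1 array. Lrrc8a fell more in rat, by 2.76 ± 0.60 against 0.62 ± 0.19 (difference adjusted p = 0.0294, lost without mouse TCE 2, mouse oil 3, rat TCE 2 or rat oil 3, and with the Gapdh covariate, adjusted p = 0.0555).

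**Figure D2:**
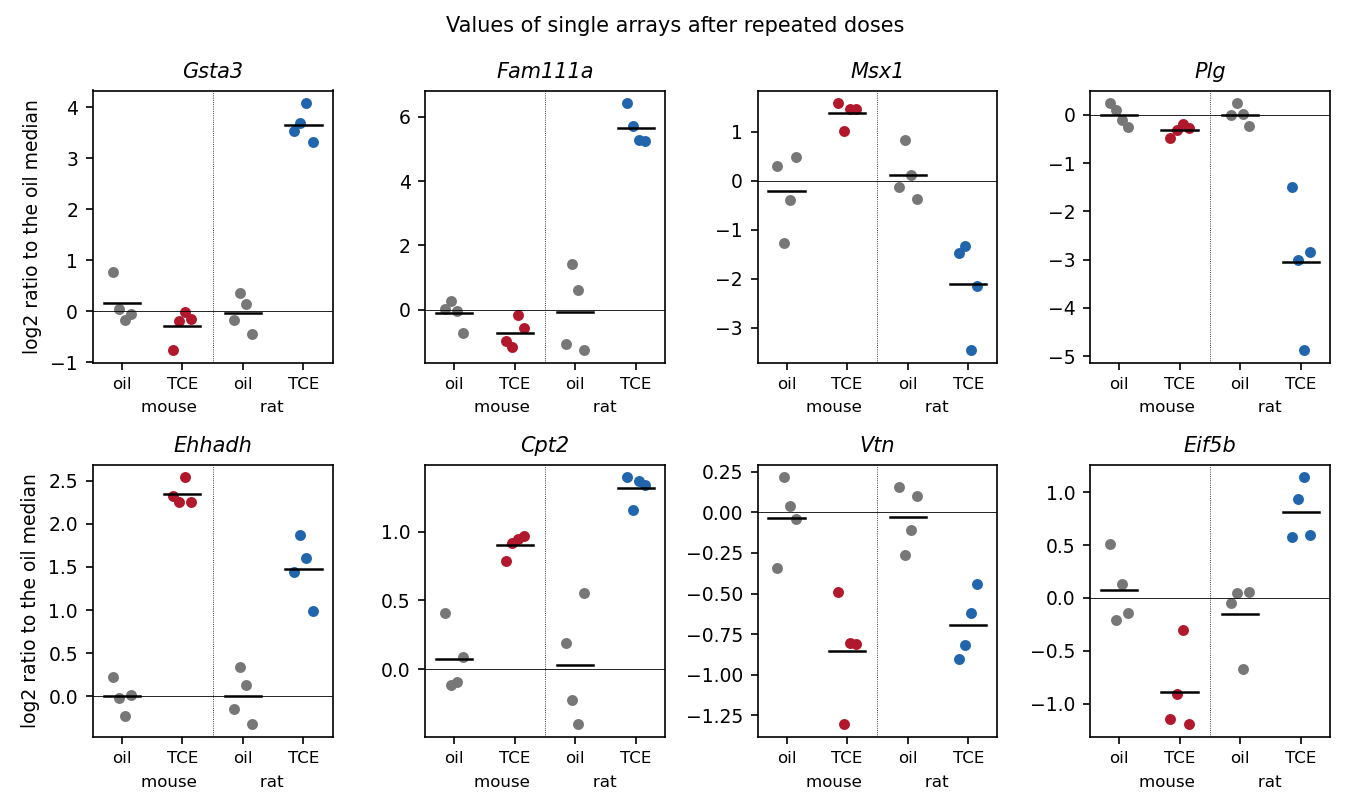
Ratios of single arrays on the log2 scale for 8 genes, with mouse on the left and rat on the right of each panel and lines at group means (n = 4 arrays each). Gsta3 and Fam111a are high on rat TCE arrays alone, Ehhadh and Cpt2 are high on the TCE arrays of both species, Vtn is low in both, and Eif5b is low in mouse and high in rat.

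Opposite changes, each past the threshold within its species, were found for 9 genes. Those that fell in mouse and rose in rat were Srpk2, a kinase of splicing factors, Eif5b, a translation initiation factor, Slc16a7, a monocarboxylate transporter, the zinc finger factor Klf6, Edem3, which marks misfolded glycoproteins for degradation, the matrix protein Sparc, the plasma glycoprotein Azgp1 and the mitochondrial ribosomal protein Mrpl44. Srpk2 had TCE ratios of 0.221, 0.233, 0.290 and 0.201 in mouse and 1.98, 4.07, 1.33 and 2.39 in rat. Each set lay clear of its controls, though the third rat array exceeded the highest oil ratio of 1.30 only narrowly, and the effects of -2.28 ± 0.53 and 1.24 ± 0.32 differed by -3.52 ± 0.62 (adjusted p = 0.000682). Klf6 had ratios of 0.498, 0.469, 0.462 and 0.550 in mouse and 4.15, 4.74, 4.88 and 3.06 in rat, a difference of -3.04 ± 0.56 (adjusted p = 0.000849). For Eif5b the mouse ratios were 0.451, 0.533, 0.808 and 0.436 and the rat ratios 1.5, 1.92, 2.21 and 1.51 (difference -1.93 ± 0.32, adjusted p = 0.000356). Differences of Slc16a7, Edem3, Sparc, Azgp1 and Mrpl44 were -2.16, -1.79, -2.0, -1.32 and -1.19. All 8 differences passed after centring, and none was lost when 1 array was left out. The within-species calls were less stable: after centring Klf6 was the only one of the 8 to change in both species, and each rat rise among the 8 was lost in at least 1 fit without 1 array.

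Glul, glutamine synthetase of the hepatocytes around the central vein, was the single gene recorded as rising in mouse and falling in rat, and its mouse direction depends on the probe set. On the probe set with the smaller spread the mouse TCE ratios were 1.81, 2.20, 1.79 and 1.89 (effect 0.89 ± 0.17, adjusted p = 0.00747), while the second mouse probe set read -1.27. In rat the ratios were 0.355, 0.318, 0.467 and 0.275 (effect -1.54 ± 0.24, adjusted p = 0.00563), and all 4 probe sets were below 0, 3 of them past the threshold. No direction is therefore given for mouse.

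Among the largest differences higher in mouse, Msx1, a homeobox transcription factor, had TCE ratios of 3.01, 2.01, 2.77 and 2.76 in mouse and 0.359, 0.397, 0.0910 and 0.225 in rat. The groups did not overlap in either species. The effects were 1.60 ± 0.50 in mouse (adjusted p = 0.054) and -2.22 ± 0.45 in rat (adjusted p = 0.0184), and the difference was 3.81 ± 0.69 (adjusted p = 0.000742). Psat1, an enzyme of serine synthesis, had mouse ratios of 18.3, 10.7, 7.19 and 1.72 and rat ratios of 0.970, 0.962, 1.36 and 1.34. Its 4 rat probe sets had log2 effects from -0.02 to 2.45, none of them called as a rise. The fourth mouse array was far lower than the others but still above its controls (difference 2.80 ± 0.67, adjusted p = 0.00726, 0.0556 over the mean of probe sets). S100g, a calcium-binding protein, had mouse ratios of 17.3, 29.8, 12.2 and 12.3 against rat ratios of 1.44, 1.48, 1.38 and 1.29 (difference 2.89 ± 0.62, adjusted p = 0.00326). Il1rn, the interleukin-1 receptor antagonist, had ratios of 3.42, 2.22, 2.79 and 3.11 in mouse and 0.347, 0.566, 0.394 and 0.274 in rat (difference 2.72 ± 0.54, adjusted p = 0.00191). Grin2b, a glutamate receptor subunit of neurons, had mouse ratios of 5.98, 4.08, 4.44 and 4.62 and rat ratios of 0.883, 0.924, 1.0 and 0.882 (difference 2.31 ± 0.32, adjusted p = 5.47e-05). Olfm1, an extracellular protein of neurons, differed by 2.46 ± 0.60 (adjusted p = 0.00861, 0.114 over the mean of probe sets).

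Plg, plasminogen, fell in rat. Rat TCE ratios were 0.353, 0.124, 0.0341 and 0.139 and mouse TCE ratios 0.720, 0.805, 0.879 and 0.828. The rat arrays were all below their controls but spread widely, and the effects were -3.06 ± 0.64 in rat (adjusted p = 0.0196) and -0.31 ± 0.14 in mouse (difference 2.75 ± 0.67, adjusted p = 0.00861). The lowest rat array, the third, also had the highest Gapdh value of the 16 arrays, 2.07. With the Gapdh value as a covariate the Plg difference was 1.28 (adjusted p = 0.0208), and without the arrays of high Gapdh value it was 1.87 and did not pass (adjusted p = 0.066). The other mouse probe set of Plg passed at -1.0. Rhoa, a small GTPase, with 2.95 ± 0.96 (adjusted p = 0.0476, 0.252 with the Gapdh covariate and 0.108 over the mean of probe sets), and Ccl11, an eosinophil chemokine, with 2.62 ± 0.78 (adjusted p = 0.0299), were the least stable of the 10. The Rhoa call was lost in 12 of 16 fits without 1 array and its rat TCE ratios included 1 of 0.0114, and the Ccl11 call was lost in 6 and with the Gapdh covariate (adjusted p = 0.0735).

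Among the 10 largest differences lower in mouse, Fam111a, a protease of DNA replication, had rat TCE ratios of 86.1, 52.0, 38.6 and 38 against rat oil ratios of 0.481, 2.67, 1.52 and 0.419. Mouse TCE ratios were 0.515, 0.449, 0.899 and 0.678. The rat TCE arrays stood far above controls that themselves spread widely, and the effects were 5.73 ± 1.0 (adjusted p = 0.0085) and -0.60 ± 0.47 (difference -6.33 ± 1.14, adjusted p = 0.000724). Onecut1, a hepatocyte transcription factor, had rat TCE ratios of 21.4, 4.14, 8.41 and 20.4, the lowest barely above an oil ratio of 3.96, and mouse TCE ratios of 0.363, 0.489, 1.10 and 0.570 (difference -4.42 ± 1.02, adjusted p = 0.00574). Jun, an immediate early transcription factor, differed mainly through mouse on the probe sets used, with TCE ratios of 0.0841, 0.132, 0.172 and 0.548 there and 1.05, 0.843, 1.39 and 0.606 in rat. The mouse arrays were all below their controls, and 1 rat oil array stood low at 0.171 (difference -2.96 ± 0.70, adjusted p = 0.0071). The 4 rat probe sets of Jun had effects from 0.48 to 1.84, none of them called, and the difference over the mean of probe sets was -3.57. Acsm2, a medium-chain acyl-CoA synthetase, Prps2, of nucleotide synthesis, and Srsf10, a splicing factor, differed by -4.13 ± 1.04, -3.59 ± 0.97 and -3.45 ± 0.71. Acsm2 and Srsf10 fell in mouse and Prps2 rose in rat. All 10 calls kept their side of the threshold after centring and in every fit without 1 array.

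**Figure D3:**
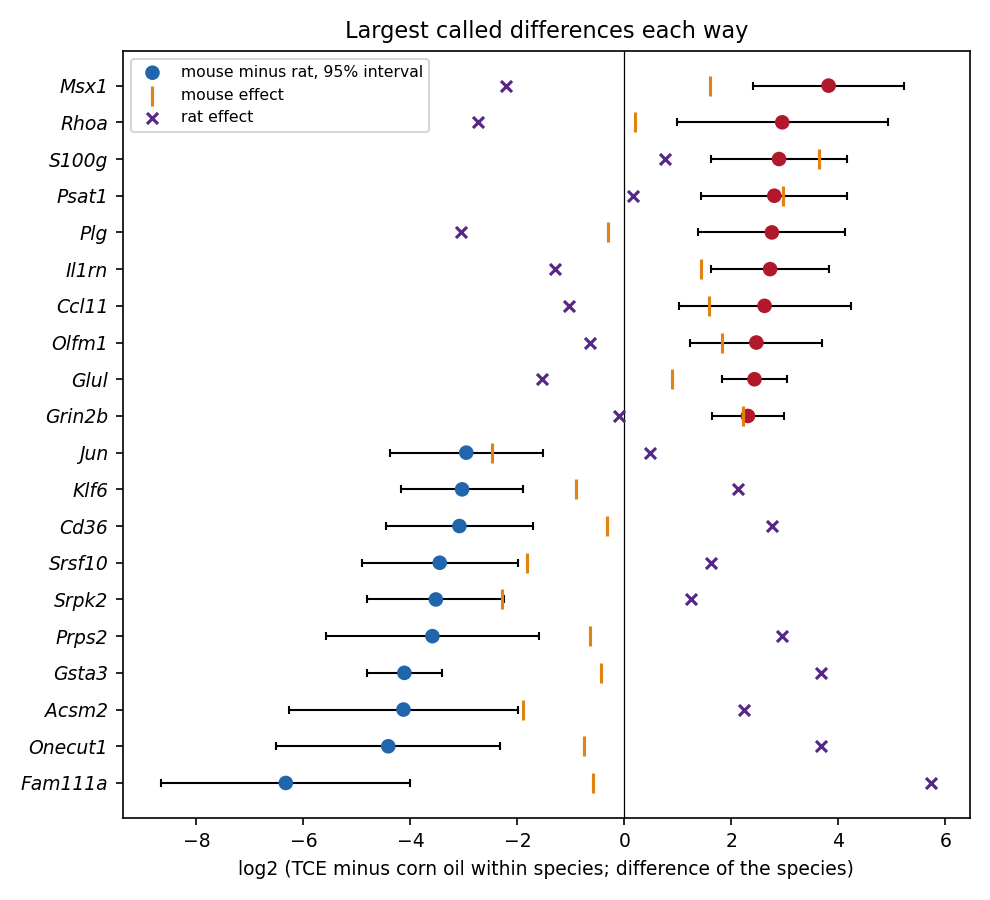
The 10 largest called differences each way: circles give mouse minus rat with 95% intervals, orange bars the mouse effect and purple crosses the rat effect, all on the log2 scale. On the probe sets plotted, Fam111a, Gsta3 and Plg differ mainly through the rat effect, Psat1, S100g, Grin2b and Jun mainly through the mouse effect.

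Many plasma protein genes of the liver fell in mouse, some of them more than in rat. Of 30 shared genes of complement, coagulation and fibrinolysis 13 fell in mouse and none rose, and 2 fell in rat. Of all shared genes 9.23% fell in mouse and 0.753% in rat. The effect was lower in mouse for 7 and higher for 1, Plg, beside 8.51% and 2.0% of all shared genes. After centring 9 fell in mouse, 2 fell in rat, and 6 and 1 differed. The list's median effect was -0.70 in mouse and -0.28 in rat, beside -0.16 and 0.04 over all shared genes. All 3 fibrinogen chains were among the lower ones. Fgb had mouse TCE ratios of 0.309, 0.370, 0.531 and 0.406 and rat TCE ratios of 0.898, 0.717, 0.771 and 0.756. Mouse arrays were far below their controls, whereas the rat groups overlapped (effects -1.40 ± 0.18 and -0.38 ± 0.16, difference adjusted p = 0.00444). Differences were -1.39 ± 0.20 for Fga (adjusted p = 5.47e-05), -1.05 ± 0.19 for Fgg, -1.25 ± 0.26 for prothrombin (F2), -1.68 ± 0.34 for the anticoagulant protein S (Pros1) and -1.18 ± 0.26 for complement C9, all still past the threshold after centring. In the acute phase and plasma protein list of 26, 7 fell and 2 rose in mouse, none changed in rat, and 5 had a lower and 1 a higher effect in mouse (3 and 1 after centring), among the lower Itih4 (-1.54 ± 0.26), Orm1 (-1.29 ± 0.33) and Apcs (-1.17 ± 0.29). Of this list 23.1% differed, beside 10.5% of all shared genes. Apolipoprotein B (Apob) fell by 1.72 ± 0.20 in mouse, with an effect of 0.12 ± 0.18 in rat (difference adjusted p = 5.47e-05), although its 5 rat probe sets ran from 0.12 to 3.40 and the difference over the mean of probe sets was -2.99.

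Several proteasome subunits rose in rat, with a lower effect in mouse. Of 25 subunits and regulators 4 rose in rat, Psma1, Psma2, Psma4 and Psmd1 (3 after centring), and none fell. Of all shared genes 2.59% rose in rat. In mouse 2 fell, Psmb1 and Psmd10, and none rose, but after centring 2 rose and 1 fell there. The effect was lower in mouse for 6 and higher for none (5 and 0 after centring), beside 8.51% and 2.0% of all shared genes. The median effect was 0.36 in rat and -0.14 in mouse, beside 0.04 and -0.16 over all shared genes. After centring the list medians were 0.31 in rat and 0.01 in mouse. Psma2, of the core ring, had effects of 0.96 ± 0.18 in rat (adjusted p = 0.00991) and -0.16 ± 0.14 in mouse (difference -1.13 ± 0.21, adjusted p = 0.000884). Psma1 had a similar difference of -1.25 ± 0.23, with its second rat probe set at -0.33 and no call over the mean of probe sets (adjusted p = 0.288). Psmd10, also called gankyrin, differed by -1.84 ± 0.37 through its fall in mouse, where TCE ratios were 0.333, 0.246, 0.578 and 0.199.

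Several endoplasmic reticulum genes fell in mouse. Of 28 genes of folding and secretion 11 fell in mouse and none in rat, beside 9.23% and 0.753% of all shared genes. After centring 8 fell in mouse and 1 in rat. The median effect was -0.57 in mouse and -0.12 in rat, beside -0.16 and 0.04 over all shared genes. In this list 14.3% differed between the species, beside 10.5% of all shared genes. The difference itself passed for only 4, Canx, Eif2ak3, Sec62 and Hspa5 (1 lower and 1 higher after centring), so a difference between species was not shown for most of those 11. Hspa5, the chaperone BiP, fell by 1.41 ± 0.22 in mouse against -0.31 ± 0.26 in rat, and its difference did not pass after centring (adjusted p = 0.105) or in 8 of 16 fits without 1 array. With the Gapdh covariate none of Canx, Eif2ak3 and Hspa5 differed (adjusted p = 0.0831, 0.0511 and 0.142), nor did Hsph1 (0.129), Orm1 (0.0643) or Foxa3 (0.0649), and Canx did not differ over the mean of probe sets (0.404). Of 22 cytosolic and mitochondrial chaperones 4 had a lower effect in mouse (2 after centring), such as Hsph1 (-1.55 ± 0.40, adjusted p = 0.669 over the mean of probe sets) and St13 (-1.43 ± 0.34), and 1, the small heat shock protein Cryab, a higher one (1.89 ± 0.45, adjusted p = 0.0911 over the mean of probe sets). Among these chaperones 22.7% differed, beside 10.5% of all shared genes.

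Growth factor genes and hepatocyte transcription factors differed at shares close to that of all shared genes, at 11.4% and 8.82% against 10.5%. Egfr, the epidermal growth factor receptor, had TCE ratios of 0.346, 0.381, 0.376 and 0.382 in mouse and 0.838, 0.965, 0.851 and 0.929 in rat. The 4 mouse arrays lay close together and far below their controls (effects -1.47 ± 0.15 and -0.19 ± 0.16, difference adjusted p = 0.000353, 0.00166 after centring). Of 35 growth hormone, IGF and growth factor genes 3 had a lower effect in mouse, with Lepr, the leptin receptor, and Jak2, its kinase, beside Egfr, and 1, Igf2, a higher one (1.68 ± 0.39). Of 34 nuclear receptors and hepatocyte factors 3 had a lower effect in mouse, Onecut1, the orphan receptor Nr2f2 (-2.48 ± 0.48) and Foxa3 (-1.90 ± 0.50). Probe sets of Lepr, Nr2f2 and Igf2 disagreed in sign or size within a species, and the Lepr, Nr2f2 and Igf2 differences were not called over the mean of probe sets (adjusted p = 0.544, 0.185 and 0.0905). Among 29 genes of DNA damage and cell death 3 were lower in mouse, including the death receptor Fas (-2.17 ± 0.56), and 2 higher. That is 17.2% of the list, beside 10.5% of all shared genes.

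Of the markers of macrophages and leukocytes 8.11% differed, of endothelial cells 12.5% and of stellate cells and matrix 8.11%, beside 10.5% of all shared genes. Of 37 macrophage and leukocyte markers 3 had a lower effect in mouse and none a higher one (1 and 0 after centring), Cd53 (-2.34 ± 0.64), Ptprc, not called over the mean of probe sets (adjusted p = 0.0797), and Fcgr2b, and 4 of 37 fell in mouse (2 after centring) and none changed in rat. Of 16 endothelial markers 2 were lower (1 after centring), including Icam2 (-1.92 ± 0.48). Of 37 stellate cell and matrix genes 1, Sparc, was lower and 2 higher, among them Col1a2 at 0.97 ± 0.22, whose second mouse probe set read -0.81 and whose difference was not called over the mean of probe sets (adjusted p = 0.999). None of 15 exocrine pancreas markers, 4 adipocyte markers or 2 red blood cell markers differed. In bulk liver, fewer cells of a type and less RNA per cell cannot be told apart, and with ratios alone the summed level of a marker list cannot be given.

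**Figure D4:**
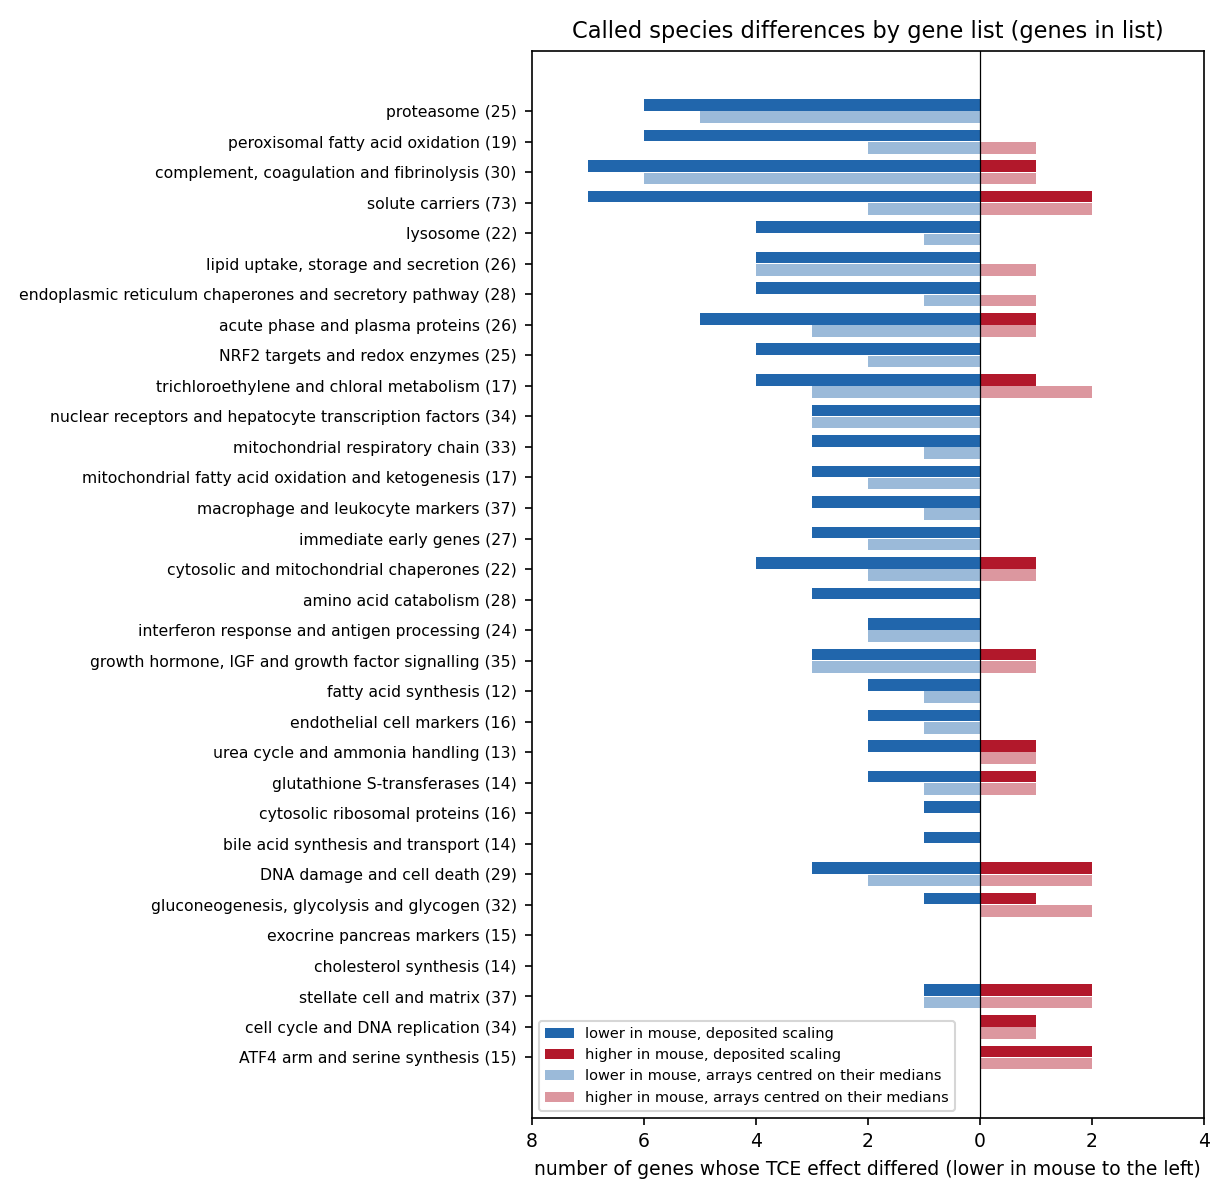
Number of genes whose TCE effect differed between the species in each list of at least 12 shared genes, lower in mouse to the left and higher to the right. Dark bars use the deposited scaling and pale bars arrays centred on their medians; proteasome and complement lists keep most of their left bars after centring, while the lysosome and amino acid catabolism lists lose most or all of theirs.

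Several differences were also seen after 1 dose, on 16 other arrays. The animals of those arrays were 8 weeks old, against 10 after repeated doses, so schedule and age cannot be told apart. Of the 260 genes lower in mouse after repeated doses 212 (81.5%) also had a single-dose difference below 0, as did 60.9% of all shared genes. The 1-dose test was passed the same way by 32 of these 260 genes, beside 83 of all 3056 shared genes. Of the 61 higher genes 38 (62.3%) had a single-dose difference above 0, as did 39.1% of all, and 7 passed, beside 46 of all 3056. Both tests take a gene's residual variance from all 32 arrays, so they are not independent. The single-dose median over all shared genes was -0.19. Gsta3 differed by -2.73 after 1 dose (adjusted p = 4.63e-05), Aldh1a1 by -1.31 (adjusted p = 0.0188), Psat1 by 4.04 (adjusted p = 0.000643) and Slc16a7 by -2.02 (adjusted p = 0.00335), while Jun differed by 0.04 and Fam111a by -0.96, neither past the threshold.

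The species difference itself depended on the schedule for 18 genes (0.589%), 8 more positive and 10 more negative after repeated doses. An unadjusted p under 0.05 was reached by 522 genes. Age differed along with the schedule in this contrast. Msx1 went from -1.81 after 1 dose, which did not pass (adjusted p = 0.124), to 3.81 (change of the difference 5.63 ± 0.97, adjusted p = 0.00547). The muscle receptor subunit Chrna1 and the chloride channel Clcn1 followed at 3.29 and 3.07; their repeated-dose differences did not pass with the Gapdh covariate (adjusted p = 0.203 and 0.123). More negative after repeated doses were Vamp5, a vesicle protein (-2.72), Eed, of the Polycomb complex (-2.50), and Acaa1b (-2.20 ± 0.47), whose species difference went from -0.15 after 1 dose to -2.35. The count was 17 after centring and 0 without the arrays of high Gapdh value, and leaving out 1 array gave 8 (rat oil 3), 10 (mouse oil 1), 11 (rat TCE 3 or rat TCE 4), 31 (mouse oil 3) or 36 (rat oil 4) in the fits that moved it most.

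**Figure D5:**
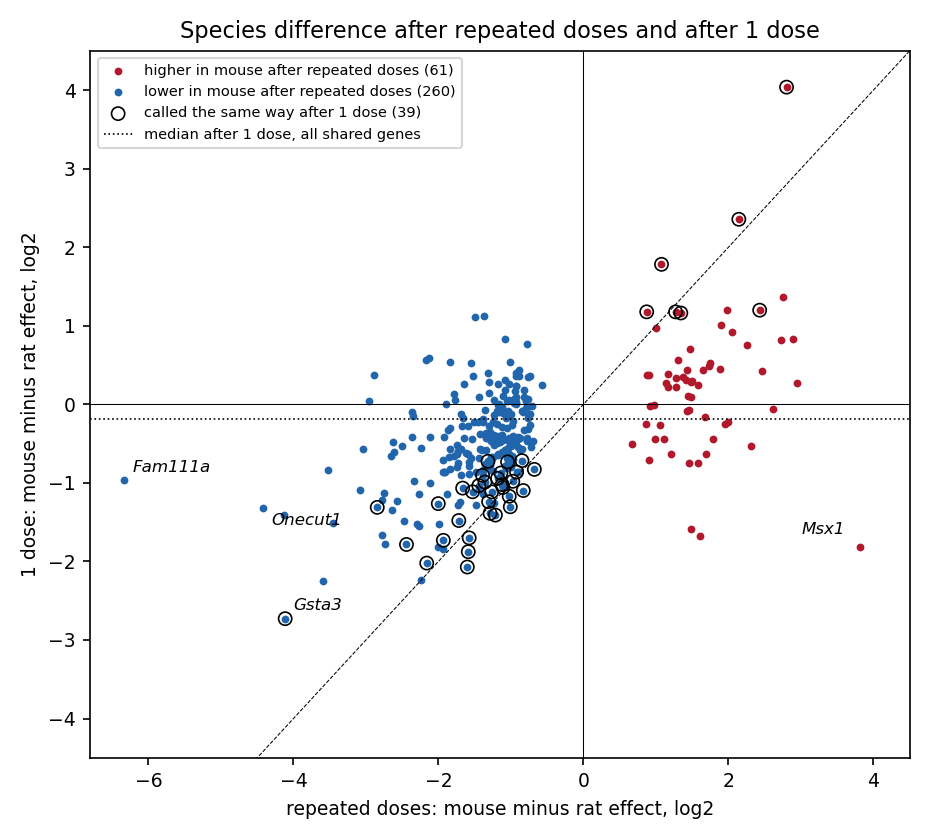
Species difference after 1 dose (vertical axis) against that after repeated doses (horizontal axis), both mouse minus rat on the log2 scale, for the 321 genes that differed after repeated doses; the dotted line marks the single-dose median of -0.19 over all shared genes. Gsta3 is far below 0 on both axes, whereas Msx1 lies on opposite sides, with a 1-dose difference that did not pass.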

How the data were processed

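Liver polyA RNA of each sample was hybridised to 1 Affymetrix array, a different design in mouse and rat. Signals were made with MAS5, per the submitters' processing notes; its version and any scaling per array are not given in the sources used here. The deposited values were ratios: the median of the 4 oil arrays of each species and schedule was 1 for each probe set, so the authors' values had been divided by it. No count or depth exists for arrays, and their number limits the precision.

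Ratios were taken to log2 with no pseudocount. Control probe sets were left out (66 in mouse, 59 in rat), leaving 12422 and 8740, of which 10833 and 7006 had 1 symbol, 396 and 308 several and 1193 and 1426 none; only those with 1 symbol were named. A gene was represented by its probe set with the smallest SD within groups, and 1409 of the 3056 shared genes had 1 probe set in each species. Effects within a species were fitted with limma 3.58.1 (lmFit and eBayes, R 4.3.3) over all non-control probe sets and the 16 arrays of that species. The species difference was fitted over the 3056 shared genes on all 32 arrays with 8 group means. P-values were adjusted by Benjamini-Hochberg over all features of a fit, with a threshold of 0.05, and errors are standard errors from limma's moderated variance or, where marked, 95% intervals. Values of arrays were compared by two-sided exact permutation tests (numpy 2.4.6), and scipy 1.17.1 gave the t quantiles of the 95% intervals. In simulated data of 3056 genes the species test recovered 1.49%, 19.4% and 65.2% of differences of 0.5, 1 and 2 on the log2 scale, with 4 false calls. The simulated noise was normal and independent between genes and arrays, with the observed SD of each probe set. Changes were added to mouse TCE arrays only, and no array-wide shift or RNA quality effect was simulated. Its recovery and false calls therefore do not give the error rates of the real arrays.

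The text names the 10 largest called differences each way, up to 8 genes a direction that changed the same way in both species, up to 6 that changed in opposite ways, up to 3 a direction for the schedule, and up to 4 called members of each list (otherwise up to 2 with the largest difference). C9, Fgb, Fgg, Gclc, Gpx2, Psma4, Psmd1, Azgp1, Mrpl44, Ybx3 and catalase lie outside this rule and were named after their values were seen. The genes, lists and tests were chosen with earlier results of these data known. Alternatives covered scaling, probe set, RNA quality, noisy genes, array weights, the arrays fitted and each array left out.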

Additional observations from a re-analysis of the deposited data

Results flagged for a closer look

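The effect of TCE differed between the species for 321 shared genes and this difference depended on the schedule for 18 (limma, Benjamini-Hochberg). The genes named for a difference of mouse minus rat were, on the log2 scale, Msx1 (3.81), Rhoa (2.95), S100g (2.89), Psat1 (2.80), Plg (2.75), Il1rn (2.72), Ccl11 (2.62), Olfm1 (2.46), Glul (2.43) and Grin2b (2.31), and in the other direction Fam111a (-6.33), Onecut1 (-4.42), Acsm2 (-4.13), Gsta3 (-4.11), Prps2 (-3.59), Srpk2 (-3.52), Srsf10 (-3.45), Cd36 (-3.08), Klf6 (-3.04), Jun (-2.96), Slc16a7 (-2.16), Eif5b (-1.93) and Edem3 (-1.79). For the change of the species difference from 1 dose to repeated doses they were Msx1 (5.63), Chrna1 (3.29), Clcn1 (3.07), Vamp5 (-2.72), Eed (-2.50) and Acaa1b (-2.20).

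Single arrays stood apart from the other 3 of their group, by Dixon's ratio above its 95% critical value, in 11 of 156 groups of 4 values (7.05%), where chance gives about 1 in 20. Among mouse oil arrays these were S100g on array 2 (log2 ratio 1.89), Srpk2 on array 3 (0.84), Aldh3a2 on array 1 (0.45) and Fgb on array 1 (0.30). Rat oil arrays gave Cd36 on array 2 (1.37), Pex11a on array 1 (0.71), Jun on array 4 (-2.55), Nqo1 on array 4 (-1.11) and Eif5b on array 3 (-0.67). Eci1 stood apart on array 1 of both TCE groups, at 0.94 in mouse and 1.29 in rat.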

How the results depend on the processing

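Counts below follow the order genes that differed, higher in mouse, lower in mouse, changed in mouse, changed in rat, same way, opposite, and schedule-dependent (321, 61, 260, 361, 102, 14, 9 and 18 as reported), and give only those that moved by over 1.5 times; the causes were not tested. Quantile normalization gave 6, 4, 2, 3, 3, 0, 0 and 0. The replicate number as a block gave 180, 32, 148, 80, 20, 2, 0 and 1. After repeated doses arrays of the same number did not deviate together (correlations from -0.17 to 0.08), so no pairing by number was seen there. After 1 dose these correlations were 0.05 to 0.08 in mouse, where all 4 oil arrays matched the TCE array of their own number best. In rat 1 of 4 did so after 1 dose. Leaving out the arrays with a Gapdh 3' minus 5' value above 1 (10 in all, leaving 1 mouse TCE array after repeated doses) gave 160, 24, 136, 16, 50, 0, 0 and 0. Genes with 1 probe set in each species gave 128, 21, 107, 152, 45, 7, 4 and 2 of 1409 tested. Centring left 135 lower and 3 opposite genes. Fitting the repeated-dose arrays alone gave 118 changed in mouse, 48 in rat, 4 the same way and 1 opposite. Array weights gave 158 in rat, 25, 14 and 67, and leaving out the noisiest 40% of genes gave 216 in rat, 36, 20 and 80. The Gapdh value as a covariate gave 36 in rat, 7, 2 and 9. The mean of probe sets gave 4 opposite and 3 schedule-dependent genes, and log2(ratio + 1) gave 63 of the latter. Alternatives added after seeing the data were centring with the Gapdh covariate (185, 115 lower, 25 in rat, 5, 2 and 9) and with the mean of probe sets (153, 88 lower, 226 in mouse, 2 opposite and 3 schedule-dependent). The correlation of effects was 0.0914 with array weights, 0.134 without the noisiest genes, 0.0195 with the Gapdh covariate, centred or not, and -0.0033 without the arrays of high Gapdh value.

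Leaving out each array in turn gave 254 to 361 differing genes, 41 to 58 higher, 209 to 309 lower, 195 to 361 changed in mouse, 49 to 116 in rat, 6 to 16 the same way, 2 to 12 opposite, 8 to 36 schedule-dependent and a correlation of 0.0442 to 0.101. Of 122 named differences past the threshold 88 remained after centring, 87 over the mean of probe sets, 94 with the Gapdh covariate, 80 with the block, 44 without the arrays of high Gapdh value and 6 after quantile normalization.

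In the fits without 1 array the named differences ran from -6.83 (Fam111a without rat oil 2) to 4.07 (Msx1 without rat TCE 2), and with the Gapdh covariate that of Fam111a was -8.05. Signs turned over the mean of probe sets for the mouse effect of Glul (-0.19, centred -0.0289), the rat effect of Aldh3a2 (-0.38, centred -0.42) and the differences of Cps1 (0.23, centred 0.43) and Col1a2 (-0.0013), and, centred as well, of Pex11a (0.0142) and Man2b1 (0.19). Differences of Pparg (0.34) and Abcb1b (-0.43) turned without the arrays of high Gapdh value, that of Slc4a1 (-0.05) without mouse oil 1 and that of Fabp4 (0.17) without rat TCE 2.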
